A study of Mus musculus with 12 samples.

Results

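The keratin genes are the 53 genes, of 22180 tested, whose symbol in the array's probe-to-gene table is Krt followed by a number and at most a letter, which leaves out the keratin-associated proteins (Krtap). They were read from 54 probe sets, and for Krt18, the only keratin with a pair of them, the probe set with the higher mean over 12 arrays was used. Of the 53, 27 are type I, 25 are type II, and Krt222, a keratin-like gene, was placed in neither type by its number. The cells were mouse embryonic fibroblasts, connective-tissue cells grown from embryos, either wild type (WT) or Gdap1-null (KO). The product of Gdap1 sits in the mitochondrial outer membrane and has a part in fission of mitochondria. Total RNA was taken on day 0, before reprogramming, or on day 4 after Oct4, Sox2, Klf4 and cMyc had been introduced to turn the cells towards induced pluripotency. Each of the 4 groups (WT day 0, WT day 4, KO day 0, KO day 4) had 3 arrays of the 1-colour Affymetrix kind, and the cells grew in DMEM with serum. The labels mention a mock transduction without saying whether the day 0 cells received it, and give neither the strain and age of the embryos nor how the null allele was made. Nothing in them tells if arrays of 1 group are from different cultures or embryos, so p-values measure only the spread between these arrays, which may be technical.

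Keratins are the intermediate filament proteins of epithelial cells. A filament is built from pairs in which a type I (acidic) keratin lies beside a type II (basic) keratin, and each kind of epithelium uses its own pairs: Krt8 with Krt18 in simple epithelia and in the early embryo, Krt5 with Krt14 in the basal layer of the epidermis, Krt1 with Krt10 in the layers above it, and Krt6 with Krt16 and Krt17 in wounded or stressed epidermis. Fibroblasts build their filaments mainly from vimentin. Gain of epithelial genes and loss of mesenchymal ones is a known early step when fibroblasts are reprogrammed.

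The 12 arrays had medians between 5.22 and 5.32 on the log2 scale over the tested genes, and the mean Pearson correlation of an array with its own group, across genes, was lowest for WT day 4 array 1 (0.987), against 0.991 to 0.997 for the other 11. In a list of 8 fibroblast genes, which includes collagens, Thy1 and Fn1, the mean log2 level was between 10.23 and 10.64 in every array, although members moved with the groups. Thy1 and Col1a1 fell by day 4 in both genotypes (-1.03 and -0.65 in WT, -0.45 and -0.55 in KO cells). Of the 8, 4 fell and 0 rose in WT cells, and 3 fell and 1 rose in KO cells. That is 50% of the list in each, against 22.9% and 30.8% of all tested genes (limma, adjusted p under 0.05). Pdgfra was higher in KO cells on day 0 (0.71) and on day 4 (0.56), as was Thy1 on day 4 (0.66). Col3a1 was lower in KO cells on day 4 (-0.47). These are 12.5% of the list on day 0 and 37.5% on day 4, against 5.6% and 20.7% of all genes. Gdap1 itself had levels of 2.82 to 3.30 in the 6 WT arrays and 2.97 to 3.28 in the 6 KO arrays, all under 3.75, the 25th percentile of all tested genes, so its probe set does not check the genotype labels (-0.08 ± 0.12 on day 0, adjusted p = 0.831, and 0.16 ± 0.12 on day 4, adjusted p = 0.395). Of the 53 keratins, 14 had a mean level under that percentile, among them Krt16, Krt6a, Krt6b, Krt15, Krt2 and Krt4. The number of arrays limits the precision, and in RNA of a whole culture fewer cells of a type and less RNA per cell cannot be told apart.

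Upstream sequences are shown for 4 members on which the comparisons below turn: Krt7, Krt8 and Krt18, which were lower in KO than in WT cells on day 0, and Krt90, whose day 4 change differed between genotypes. Each is the 250 bases before the annotated start, 5′ to 3′, from RefSeq (build GRCm38.p6), with matches to the searched motifs in capitals.
Krt7, chr15:101412153-101412402, plus strand: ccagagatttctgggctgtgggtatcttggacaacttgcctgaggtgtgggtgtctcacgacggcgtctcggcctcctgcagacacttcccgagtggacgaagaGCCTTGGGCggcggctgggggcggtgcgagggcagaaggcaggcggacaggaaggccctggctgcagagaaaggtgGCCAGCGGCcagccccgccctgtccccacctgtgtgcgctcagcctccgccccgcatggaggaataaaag
Krt8, chr15:102004343-102004592, minus strand: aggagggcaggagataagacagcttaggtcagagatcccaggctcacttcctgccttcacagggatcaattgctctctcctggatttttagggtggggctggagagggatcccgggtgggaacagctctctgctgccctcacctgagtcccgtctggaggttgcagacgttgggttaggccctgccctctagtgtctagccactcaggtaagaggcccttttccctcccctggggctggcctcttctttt
Krt18, chr15:102027966-102028215, plus strand: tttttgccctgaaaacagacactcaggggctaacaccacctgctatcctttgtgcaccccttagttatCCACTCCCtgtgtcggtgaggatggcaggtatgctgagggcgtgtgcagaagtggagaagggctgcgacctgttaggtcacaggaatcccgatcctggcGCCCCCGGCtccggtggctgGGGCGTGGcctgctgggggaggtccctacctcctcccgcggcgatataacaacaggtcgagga
Krt90, chr15:101562951-101563200, minus strand: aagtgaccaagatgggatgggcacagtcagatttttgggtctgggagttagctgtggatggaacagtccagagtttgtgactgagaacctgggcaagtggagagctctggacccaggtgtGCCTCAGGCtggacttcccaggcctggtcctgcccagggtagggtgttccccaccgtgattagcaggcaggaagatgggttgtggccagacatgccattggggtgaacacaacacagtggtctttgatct
The motifs, searched on both strands, were TATAAA (the TATA box), GCCNNNGGC (AP-2 type), TGANTCA (AP-1 type) and GGGNGTGG (Kruppel-like factor type). No match overlapped another in these 4 windows. The capitals mark 2 AP-2 type matches before Krt7, 1 before Krt90, and for Krt18 1 AP-2 type match between a pair of Kruppel-like factor type matches. The Krt8 window held none of these letters. Among all 32851 windows of this length, 13.7% held the AP-2 type motif, 15.9% the Kruppel-like factor type, 12.4% the TATA box and 6.75% the AP-1 type. The table gave 37 windows for 36 keratin genes (Krt13 has a pair), and in these the AP-2 type motif was found for 5 genes, the Kruppel-like factor type for 8, the TATA box for 17 and the AP-1 type for Krt13 alone. A match is a description of the letters and not a site. By RefSeq order, 26 of the 27 type I genes lie on chromosome 11, while Krt18 lies on chromosome 15 next to Krt8, among the type II genes.

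The first comparison asked which keratins change by day 4 of reprogramming in WT cells. In WT cells 9 keratins rose and 1 fell, 10 of 53, while 22.9% of all tested genes passed, 11.1% higher and 11.7% lower (limma, Benjamini-Hochberg adjusted p under 0.05 over all tested genes). The rising keratins belonged to stratified and stressed epithelium (Krt14, Krt16, Krt6a, Krt6b), to simple epithelium (Krt19, Krt7, Krt8) and to neither group (Krt80, Krt90), and Krt18 fell. Of type I, 3 of 27 rose, and of type II, 6 of 25. The median change was 0.02 for the keratins and -0.01 for all genes on the log2 scale. In 14 of 53 keratins the WT day 4 and day 0 arrays did not overlap, against 36.3% of all genes. In KO cells 7 keratins rose (Krt19, Krt80, Krt14, Krt6a, Krt13, Krt16, Krt71) and 2 fell (Krt18, Krt10), against 30.8% of all genes, 13.8% higher and 16.9% lower, with a median of 0.00 for the keratins and -0.01 for all genes. There the arrays of the 2 days did not overlap for 12 keratins, against 45.3% of all genes. In both genotypes the share of keratins that passed was under that of all genes. When the KO change was compared with the WT change directly, 2 keratins passed, both lower (Krt16 and Krt90). Of all genes 3.95% passed in that test, 2.15% higher and 1.81% lower.

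**Figure D1:**
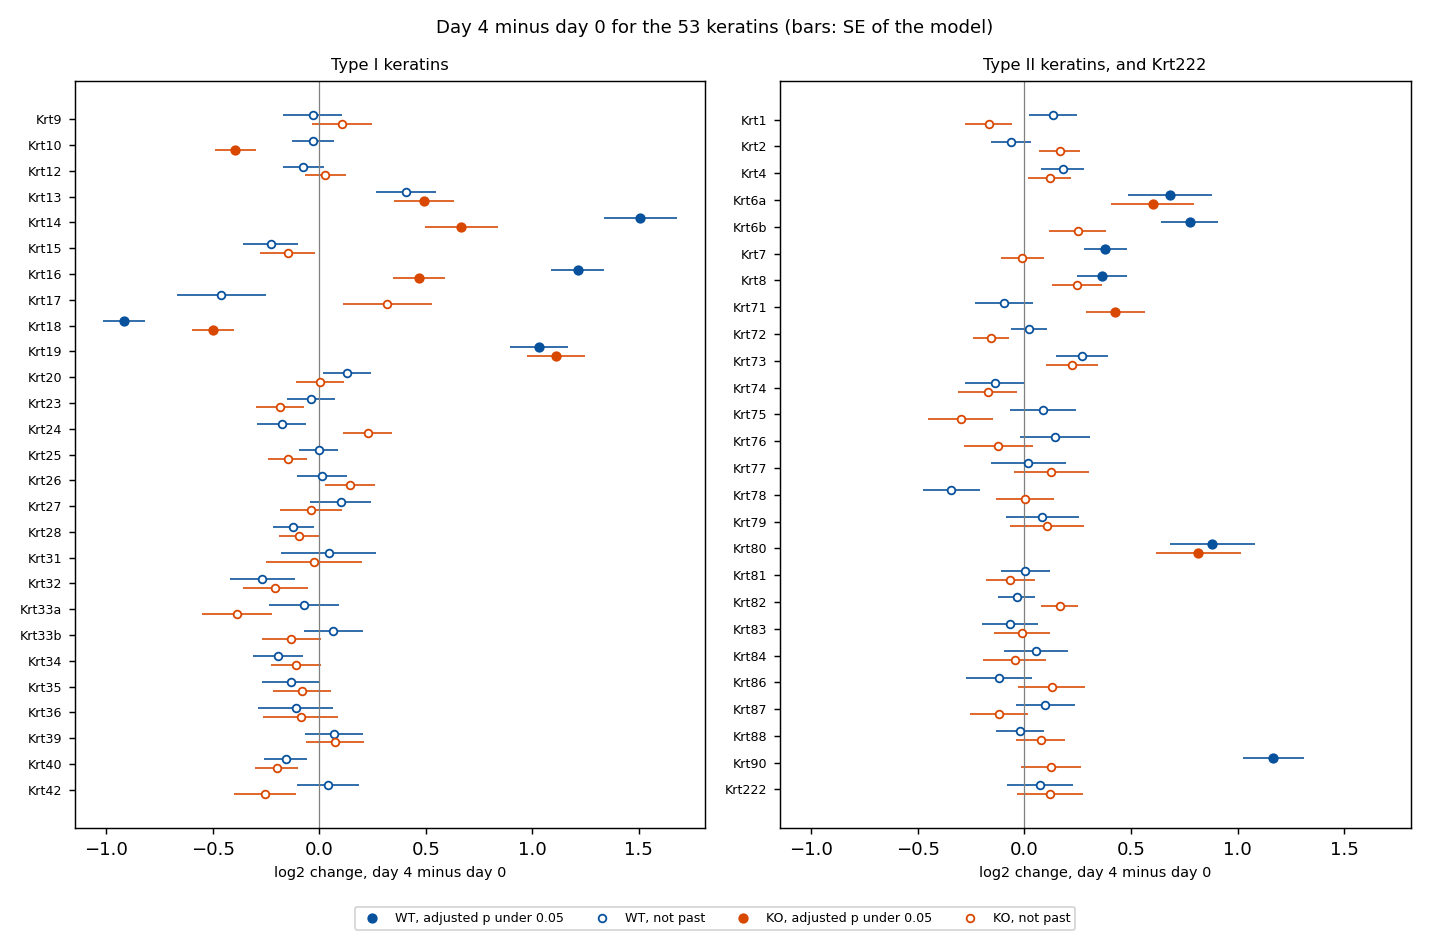
Log2 change from day 0 to day 4 (horizontal axis) of each of the 53 keratins, type I on the left and type II with Krt222 on the right, for WT (blue) and KO cells (orange). Points are model estimates from 3 arrays per group, bars are standard errors, and filled points have an adjusted p under 0.05. Most keratins lie near 0, while Krt14, Krt16, Krt19, Krt80 and, in WT cells, Krt90 lie to the right and Krt18 to the left.

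Krt14, the type I keratin of basal epidermal cells, had the largest rise of any keratin in WT cells. Krt14 levels were 5.29, 5.48 and 5.21 in the WT day 0 arrays, 6.70, 7.08 and 6.72 in WT day 4, 5.36, 4.69 and 4.65 in KO day 0 and 5.44, 5.67 and 5.59 in KO day 4. All WT day 4 arrays lay above the other 9, and the KO day 4 arrays lay above the KO day 0 arrays by a narrow margin. The rise was 2.84-fold in WT cells (log2 1.51 ± 0.17, SE, n = 3 per group, adjusted p = 3.9e-05) and 1.59-fold in KO cells (0.67 ± 0.17, adjusted p = 0.00938). On day 4 Krt14 was 2.40-fold lower in KO than in WT cells (-1.27 ± 0.17, adjusted p = 0.000385), whereas on day 0 the difference did not pass (-0.43 ± 0.17, adjusted p = 0.215). Without KO day 0 array 1, the highest of its group, the day 0 difference was -0.66 (adjusted p = 0.0154). The difference of changes missed the threshold (-0.84 ± 0.24, adjusted p = 0.0737), and passed without WT day 4 array 1 (0.0434). Its type II partner Krt5 was read only by a probe set shared with Krt6a, with levels of 4.70, 4.79 and 4.68 in WT day 0, 4.96, 4.80 and 4.57 in WT day 4, 4.53, 4.69 and 4.43 in KO day 0, and 4.79, 4.57 and 4.58 in KO day 4. The groups overlapped on that probe set, and its day 4 changes were 0.05 ± 0.11 in WT (adjusted p = 0.844, over all probe sets) and 0.10 ± 0.11 in KO cells (adjusted p = 0.593). Krt15, another type I keratin of basal cells, changed by -0.23 ± 0.13 in WT and -0.15 ± 0.13 in KO cells and did not pass, except in WT cells without WT day 0 array 2 (-0.37, adjusted p = 0.0439).

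Krt16, the type I keratin of wounded and hyperproliferating epidermis, lies next to Krt14 on chromosome 11. Krt16 levels were 2.77, 2.77 and 2.67 in the WT day 0 arrays, 3.95, 3.84 and 4.07 in WT day 4, 3.17, 3.13 and 2.74 in KO day 0 and 3.67, 3.29 and 3.49 in KO day 4. Its WT day 4 arrays again lay above all the others. Krt16 rose 2.32-fold in WT cells (1.21 ± 0.12, adjusted p = 1.69e-05) and 1.38-fold in KO cells (0.47 ± 0.12, adjusted p = 0.0114). The KO rise missed the threshold without KO day 0 array 3 (adjusted p = 0.0532) or KO day 4 array 1 (0.0544). The difference of the rises passed (-0.75 ± 0.17, adjusted p = 0.0339), but was lost in the omission of any of 8 arrays, with adjusted p of 0.0567 to 0.0909. These were all the WT day 0 arrays, WT day 4 array 3, KO day 0 arrays 1 and 2, and KO day 4 arrays 2 and 3. It was also lost with all probe sets tested (0.0774). On day 4 it was lower in KO cells (-0.47 ± 0.12, adjusted p = 0.0177), and omission of WT day 4 array 3 (0.0731) or KO day 4 array 2 (0.0656), or a fit to the day 4 arrays alone (0.0512), ended that call.

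The type II keratins Krt6a and Krt6b are partners of Krt16 and Krt17 in stressed epidermis, and their sequences are close enough that reads of either on the array are uncertain. Krt6a levels were 3.15, 2.81 and 3.49 in the WT day 0 arrays, 3.49, 4.12 and 3.89 in WT day 4, 3.16, 2.79 and 2.87 in KO day 0 and 3.60, 3.78 and 3.25 in KO day 4. The WT day 0 and day 4 arrays met at 3.49, and the KO arrays of the 2 days did not overlap. Krt6a rose by 0.68 ± 0.20 in WT (adjusted p = 0.0226) and 0.60 ± 0.20 in KO cells (adjusted p = 0.0333). The WT result no longer passed on omission of WT day 0 array 1 (0.0621) or 2 (0.11), or WT day 4 array 2 (0.0889) or 3 (0.0667). The KO call was lost without KO day 0 array 2 (0.111) or 3 (0.0948), or KO day 4 array 1 (0.0895) or 2 (0.115), with all probe sets tested (0.059) or with the replicate block (0.0547). Krt6b levels were 2.78, 2.83 and 2.60 in the WT day 0 arrays, 3.62, 3.44 and 3.48 in WT day 4, 3.34, 3.32 and 3.56 in KO day 0 and 3.31, 3.89 and 3.76 in KO day 4. Its WT day 0 arrays stood below all 9 others. Krt6b rose 1.71-fold in WT cells (0.78 ± 0.13, adjusted p = 0.000901), with 0.25 ± 0.13 in KO cells (adjusted p = 0.185) and the changes themselves differed by -0.53 ± 0.19, short of the threshold (adjusted p = 0.142). Without KO day 4 array 1 the KO change passed (0.42, adjusted p = 0.0124). On day 0 it was the only keratin higher in KO cells (0.67 ± 0.13, adjusted p = 0.00919), and that call was lost without WT day 0 array 3 (0.0514) or KO day 0 array 3 (0.0515). A further probe set, which names Krt6b together with Gm5478, gave -0.17 ± 0.10 in WT cells over the 4 days (adjusted p = 0.357, over all probe sets). Between genotypes on day 0 that probe set gave 0.03 ± 0.10 (adjusted p = 0.948), so it did not show the day 0 difference. Krt17 was not past the threshold in WT (-0.46 ± 0.21, adjusted p = 0.153), nor was its KO estimate (0.32 ± 0.21, adjusted p = 0.29), and without WT day 4 array 2 it passed in WT cells as lower (-0.65, adjusted p = 0.044).

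Krt90, a type II keratin gene between Krt82 and Krt75, rose in WT cells and not past the threshold in KO cells. Krt90 levels were 4.05, 4.18 and 4.02 in the WT day 0 arrays, 5.65, 4.95 and 5.15 in WT day 4, 3.97, 4.21 and 4.13 in KO day 0 and 4.25, 4.21 and 4.23 in KO day 4. The WT day 4 arrays stood above all 9 others, with array 1 the highest, and the 3 KO day 4 arrays, at 4.21 to 4.25, overlapped the upper end of KO day 0. The change was 2.25-fold in WT cells (1.17 ± 0.14, adjusted p = 6.32e-05) and 0.12 ± 0.14 on the log2 scale in KO cells (adjusted p = 0.564). The difference of changes passed (-1.04 ± 0.20, adjusted p = 0.0141) and passed without any 1 array, with adjusted p up to 0.0429. Its neighbours did not pass in WT cells: Krt82 changed by -0.04 ± 0.09 and Krt75 by 0.09 ± 0.15.

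**Figure D2:**
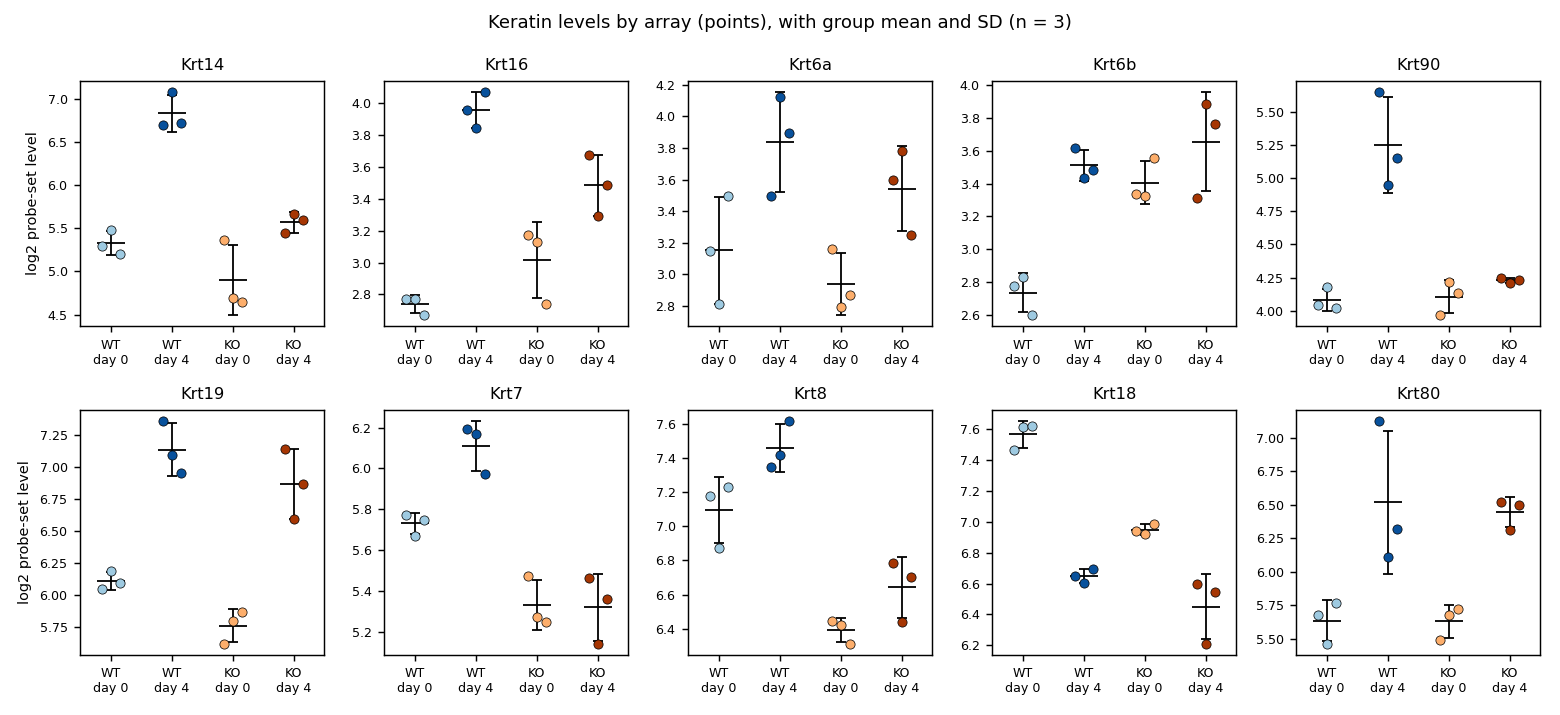
Log2 probe-set level (vertical axis, with its own range in each panel) of 10 keratins in every array, by group. Points are single arrays, horizontal bars are group means and error bars are SDs (n = 3). The WT day 4 points of Krt14, Krt16 and Krt90 lie above all the others, Krt19 and Krt80 are high on day 4 in both genotypes, and Krt7 and Krt8 are lower in KO cells on both days.

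The simple-epithelium keratins did not move together. Krt19, a type I keratin of ducts and of mesothelium, rose in both genotypes. Krt19 levels were 6.04, 6.18 and 6.09 in the WT day 0 arrays, 7.36, 7.10 and 6.95 in WT day 4, 5.62, 5.80 and 5.86 in KO day 0 and 7.14, 6.60 and 6.87 in KO day 4. Every day 4 array lay above every day 0 array. The rise was 2.04-fold in WT (1.03 ± 0.14, adjusted p = 0.000126) and 2.16-fold in KO cells (1.11 ± 0.14, adjusted p = 5.48e-05), and the difference of 0.08 ± 0.19 did not pass (adjusted p = 0.876). Krt8 and Krt18, which pair with each other, went in opposite directions in WT cells. Krt18 levels were 7.47, 7.61 and 7.62 in the WT day 0 arrays, 6.65, 6.60 and 6.70 in WT day 4, 6.94, 6.92 and 6.99 in KO day 0 and 6.60, 6.21 and 6.55 in KO day 4. On each genotype the day 4 arrays were below the day 0 arrays, and the WT day 0 arrays were the highest of all. Krt18 fell 1.89-fold in WT cells (-0.92 ± 0.10, adjusted p = 2.41e-05) and 1.41-fold in KO cells (-0.50 ± 0.10, adjusted p = 0.00166), and the changes differed by 0.42 ± 0.14, short of the threshold (adjusted p = 0.115) except without KO day 4 array 2 (0.54, adjusted p = 0.0181). Its other probe set fell by 0.73 ± 0.17 on the log2 scale in WT cells (adjusted p = 0.0122, over all probe sets) and by 0.76 ± 0.17 in KO cells (adjusted p = 0.00671). Krt8 levels were 7.18, 6.87 and 7.23 in the WT day 0 arrays, 7.35, 7.42 and 7.62 in WT day 4, 6.45, 6.42 and 6.31 in KO day 0 and 6.79, 6.44 and 6.70 in KO day 4. Krt8 was higher on day 4 by 0.36 ± 0.12 in WT cells (adjusted p = 0.0403), with 0.25 ± 0.12 in KO cells (adjusted p = 0.133, and 0.0424 without KO day 4 array 2). That WT call was near the threshold: it was lost in the omission of WT day 0 array 1 (0.0585) or 2 (0.177), WT day 4 array 2 (0.0631) or 3 (0.151), or any KO day 0 array (0.0517 to 0.0552), in a fit to the WT arrays alone (0.074) and with all probe sets tested (0.0741).

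Krt7 levels were 5.77, 5.67 and 5.75 in the WT day 0 arrays, 6.19, 6.17 and 5.97 in WT day 4, 5.47, 5.27 and 5.25 in KO day 0 and 5.46, 5.14 and 5.36 in KO day 4. The WT day 4 arrays were the highest, and every KO array was below every WT array. Krt7, the type II keratin of simple and ductal epithelia, rose in WT cells by 0.38 ± 0.10 (adjusted p = 0.0145, and 0.0583 without WT day 0 array 2), with -0.01 ± 0.10 in KO cells (adjusted p = 0.958). The difference of these changes did not pass (-0.39 ± 0.14, adjusted p = 0.148). Krt80, a type II keratin of differentiating epithelia that lies next to Krt7, rose in both genotypes. Krt80 levels were 5.68, 5.47 and 5.77 in the WT day 0 arrays, 7.13, 6.11 and 6.32 in WT day 4, 5.49, 5.68 and 5.72 in KO day 0 and 6.52, 6.32 and 6.50 in KO day 4. WT day 4 array 1 stood well above the other day 4 arrays. The rise was 0.88 ± 0.20 in WT (adjusted p = 0.00578) and 0.82 ± 0.20 in KO cells (adjusted p = 0.00716), and without WT day 4 array 1 the WT rise was 0.58 (adjusted p = 0.00284).

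Among the keratins of the upper epidermis, mucosa and hair, Krt13 and Krt71 rose and Krt10 fell over the 4 days in KO cells (Krt10 by 0.39 ± 0.10 on the log2 scale, adjusted p = 0.00716). Krt10 was the only 1 of 5 upper-epidermis keratins to pass there, and their median change in KO cells was 0.11. In WT cells limma called 0 of these keratins, against 22.9% of all tested genes. At an unadjusted p under 0.05 there were 2 of 5 mucosa keratins and 1 of 9 of the hair follicle sheath, against 7210 of all 22180 genes. Krt13, a type I keratin of mucosa, rose by 0.49 ± 0.14 in KO cells (adjusted p = 0.0189) and by a similar estimate in WT cells that did not pass (0.41 ± 0.14, adjusted p = 0.0586), but passed without WT day 4 array 3 (0.00592) or KO day 4 array 2 (0.0396). The KO call was lost without KO day 0 array 2 (0.0614) or 3 (0.0635) or KO day 4 array 2 (0.0768). Krt71, of the inner root sheath of hair, rose in KO cells (0.43 ± 0.14, adjusted p = 0.0312), a call lost without KO day 0 array 1 (0.142) or KO day 4 array 1 (0.111) or 3 (0.0929), or with all probe sets tested (0.0543). None of the 15 hair and nail keratins passed in any of the 5 comparisons of limma, in which 3.95% to 30.8% of all genes passed. Their day 4 changes ran from -0.27 to 0.10 in WT and from -0.38 to 0.17 in KO cells. At an unadjusted p under 0.05 there was 1 of the 15 in KO cells over the 4 days and 1 between genotypes on day 4. Of all 22180 genes, 8870 and 7368 were under that p in these comparisons. The 43 keratins that did not pass in WT cells had changes between -0.46 and 0.41, with a median SE of 0.14.

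The next comparison asked how keratins differ between KO and WT cells before reprogramming. On day 0, 4 of 53 keratins differed, 3 lower (Krt8, Krt18, Krt7) and 1 higher (Krt6b), against 5.6% of all tested genes (2.48% higher and 3.12% lower). The count was 2 without WT day 0 array 3 or KO day 0 array 3. The 3 lower ones are among the 6 keratins of simple epithelium, whose median difference was -0.37, against -0.01 for all keratins and -0.00 for all genes. Not all 6 had estimates below 0: Krt20 (0.28 ± 0.11, adjusted p = 0.218) and Krt23 (0.10 ± 0.11, adjusted p = 0.745) were above 0 and did not pass. Their mean levels over the 12 arrays were low, 4.46 for Krt20 and 3.59 for Krt23, the latter under the 25th percentile, so a fall could be missed. The arrays of the 2 genotypes did not overlap for 6 keratins, against 29.5% of all genes. Krt8 was 1.63-fold lower in KO cells (-0.70 ± 0.12, adjusted p = 0.00307), and Krt18 1.53-fold lower (-0.62 ± 0.10, adjusted p = 0.00208). The other Krt18 probe set gave -0.46 ± 0.17 (adjusted p = 0.236, over all probe sets). The probe set that names Krt6b with Gm5478 gave 0.03 ± 0.10 (adjusted p = 0.948, over all probe sets). Krt7 was 1.32-fold lower (-0.40 ± 0.10, adjusted p = 0.0345), which did not hold without WT day 0 array 1 (0.125), 2 (0.071) or 3 (0.114), without KO day 0 array 2 (0.131) or 3 (0.143), with quantile normalization (0.0512) or with all probe sets tested (0.0763). Krt19 had an estimate of -0.35 ± 0.14 that did not pass (adjusted p = 0.199), though its arrays did not overlap, and that passed in a fit to the day 0 arrays alone (0.0265).

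On day 4, 8 of 53 keratins differed between genotypes, 7 lower and 1 higher in KO cells, against 20.7% of all tested genes (8.34% higher and 12.4% lower), and the arrays did not overlap for 13 keratins, against 31.6% of all genes. Without WT day 4 array 3 the count was 4. Krt14 (-1.27), Krt90 (-1.02 ± 0.14, adjusted p = 0.000458), Krt8 (-0.82 ± 0.12, adjusted p = 0.000542) and Krt7 (-0.79 ± 0.10, adjusted p = 0.000272) were the largest. Krt8 and Krt7 were thus lower in KO cells on either day, and both day 4 calls were kept without any 1 array. Krt18, lower in KO cells on day 0, did not pass on day 4 (-0.20 ± 0.10, adjusted p = 0.176), but did as the average of its probe sets (-0.35, adjusted p = 0.0287). Krt10 and Krt1, the pair of the upper epidermis, were each slightly lower in KO cells on day 4. The other upper-epidermis keratins, Krt2 (0.16), Krt9 (0.07) and Krt77 (0.07), had estimates above 0 that did not pass, and the median of the 5 was 0.07. Krt10 levels were 5.40, 5.40 and 5.46 in the WT day 0 arrays, 5.25, 5.55 and 5.37 in WT day 4, 5.52, 5.24 and 5.52 in KO day 0 and 4.998, 5.03 and 5.06 in KO day 4. The KO day 4 arrays lay below all the others. Krt10 differed by -0.36 ± 0.10 (adjusted p = 0.0202), lost without WT day 4 array 2 (0.085) or 3 (0.0502) or KO day 4 array 1 (0.0599), or in a fit to the day 4 arrays alone (0.0703). Krt1 levels were 4.25, 4.35 and 4.38 in the WT day 0 arrays, 4.40, 4.41 and 4.57 in WT day 4, 4.41, 3.96 and 4.29 in KO day 0 and 4.16, 4.07 and 3.93 in KO day 4. The WT day 4 arrays were above the KO day 4 arrays, by a smaller margin than the spread of the KO day 0 arrays. Krt1 differed by -0.41 ± 0.11 (adjusted p = 0.0205), lost without WT day 4 array 3 (0.0843) or KO day 4 array 3 (0.0755). Its change over the 4 days in KO cells passed only when KO day 0 array 2, the lowest of its group, was omitted (-0.30, adjusted p = 0.0437). Krt24, a type I keratin, was the 1 higher in KO cells (0.36 ± 0.12, adjusted p = 0.0435), a call that held in the omission of 2 arrays of 12, with adjusted p up to 0.145. Its difference without KO day 4 array 1 was 0.21. The call was also lost with quantile normalization (0.0629), with all probe sets tested (0.075) and in a fit to the day 4 arrays alone (0.152). These differences share their day 4 arrays with the day 4 changes above.

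**Figure D3:**
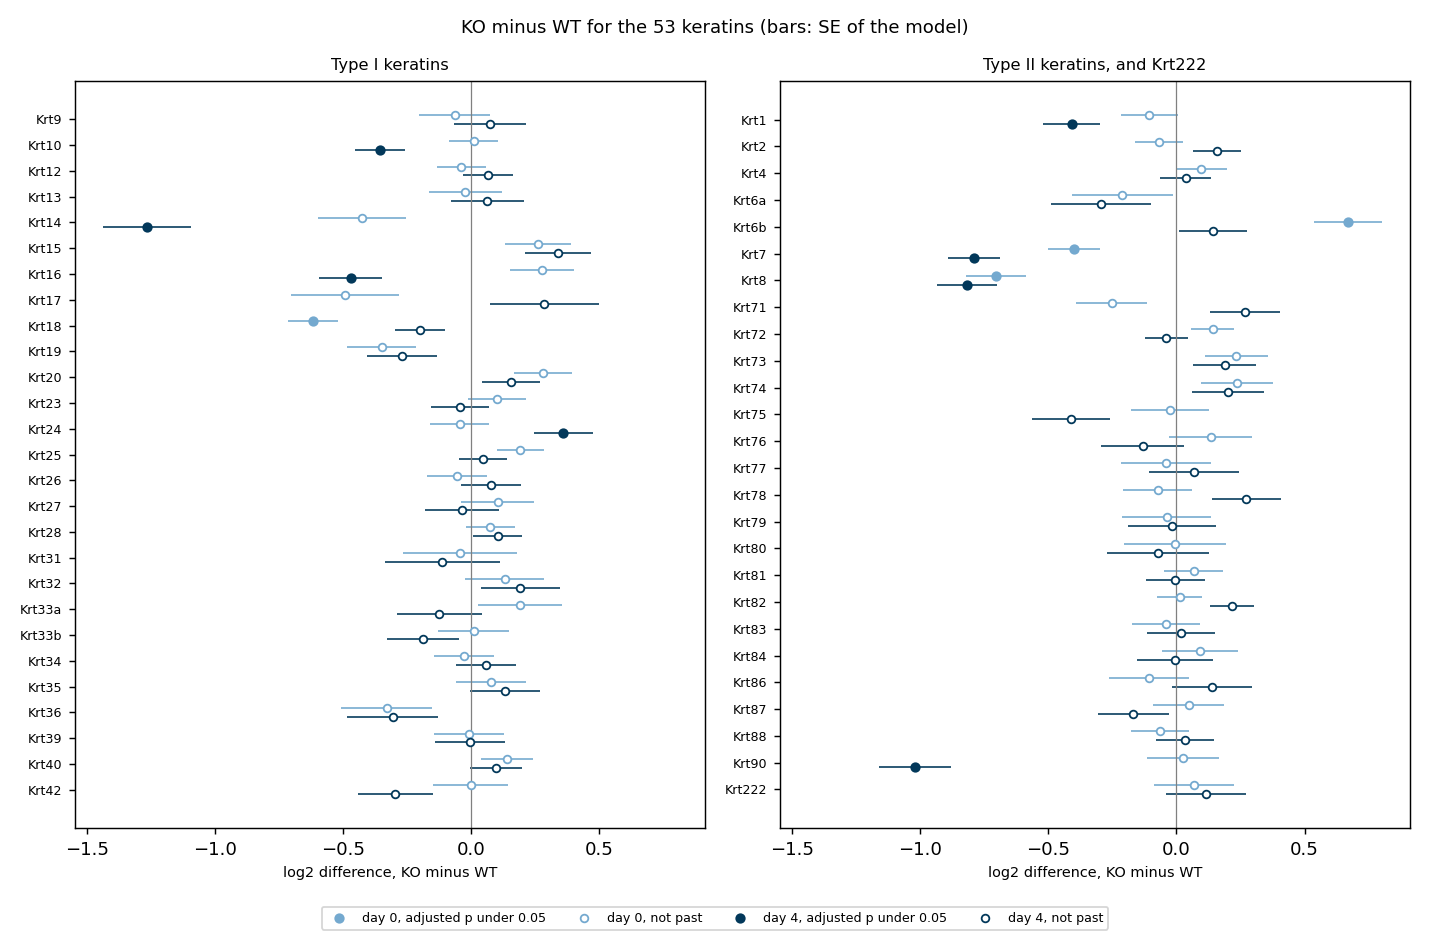
Log2 difference between KO and WT cells (horizontal axis, KO minus WT) for the 53 keratins on day 0 (light) and day 4 (dark), type I on the left and type II with Krt222 on the right. Points are model estimates from 3 arrays per group, bars are standard errors, and filled points have an adjusted p under 0.05. Krt7 and Krt8 are filled and left of 0 on both days, Krt18 on day 0, and Krt14, Krt16 and Krt90 on day 4.

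Markers of other cells moved with genotype and with day beside these keratins. Of 8 mesothelial genes (mesothelium, the lining of body cavities, makes Krt7, Krt8, Krt18 and Krt19), 6 were lower in KO cells on day 0: Lrrn4 (-1.34), Gpm6a (-1.02), Msln (-0.89), Upk3b (-0.82), Upk1b (-0.82) and Rspo1 (-0.46). That is 75% of the list, against 5.6% of all tested genes past the threshold on day 0. On day 4, 4 were lower: Upk3b (-1.11), Gpm6a (-0.87), Lrrn4 (-0.83) and Bnc1 (-0.30), 50% of the list against 20.7% of all genes. By day 4 Msln (1.61 in WT and 2.59 in KO cells), Gpm6a (0.92 and 1.07) and Upk3b (0.93 and 0.64) rose in both genotypes. Wt1 fell in both (-0.61 in each), and Bnc1 fell in KO cells (-0.68). That is 50% of the list in WT and 62.5% in KO cells, against 22.9% and 30.8% of all genes. Over the same days Krt19 rose in both genotypes, Krt18 fell in both (-0.92 and -0.50), and Krt7 changed by 0.38 and -0.01. The mean log2 level of the mesothelial list was 6.979 to 6.997 in WT day 0, 7.10 to 7.48 in WT day 4, 6.27 to 6.46 in KO day 0 and 6.71 to 7.02 in KO day 4. Macrophage and blood markers were lower in KO cells in 6 of 6 cases on each day, against 5.6% of all genes past the threshold on day 0 and 20.7% on day 4. Their medians were -1.73 and -1.79, with list levels of 6.71 to 7.45 in the WT and 5.16 to 5.38 in the KO arrays. Of 9 measured simple-epithelium genes, which hold no keratin, Cdh1 (E-cadherin) was lower in KO cells on day 4 (-0.79 ± 0.19, adjusted p = 0.0119). That is 11.1% of the list, against 20.7% of all genes, and on day 0 Cdh1 did not pass (-0.11 ± 0.19, adjusted p = 0.847). Over the 4 days Cdh1 (1.05) and Cldn3 (0.69) rose in WT cells and St14 (1.02) in KO cells. These are 22.2% and 11.1% of the list, against 22.9% and 30.8% of all genes. Epcam did not pass in any comparison, with a mean level of 3.63 over all arrays. List levels were 4.54 to 4.56 in WT day 0, 4.59 to 4.84 in WT day 4, 4.51 to 4.57 in KO day 0 and 4.65 to 4.82 in KO day 4. The 12 keratinocyte genes had 4 higher and 1 lower over the 4 days in either genotype. That is 41.7% of the list in each, against 22.9% of all genes in WT and 30.8% in KO cells. The rises were in Perp, Trp63, Sbsn and Dmkn in both, and the falls in Lor in WT (-0.44) and Dsg3 in KO cells (-0.25). Ivl, Flg, Sfn, Col17a1, Dsc3 and Dsg1a passed in neither genotype over the 4 days. Keratinocyte list levels were 4.59 to 4.71, 4.71 to 4.95, 4.57 and 4.88 to 4.92 in the same group order. Endothelial list levels were 4.56 to 4.65, 4.21 to 4.33, 4.43 to 4.49 and 4.22 to 4.34 in that order. Of the 6 endothelial genes, 1 rose and 2 fell in WT cells and 2 fell in KO cells by day 4. That is 50% and 33.3% of the list, against 22.9% and 30.8% of all genes. Between genotypes 1 was lower in KO cells on day 0 (16.7% of the list, against 5.6%) and 0 passed on day 4 (against 20.7%). No value is 0 on this scale, and the part of these cell types in the keratin differences was not tested.

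**Figure D4:**
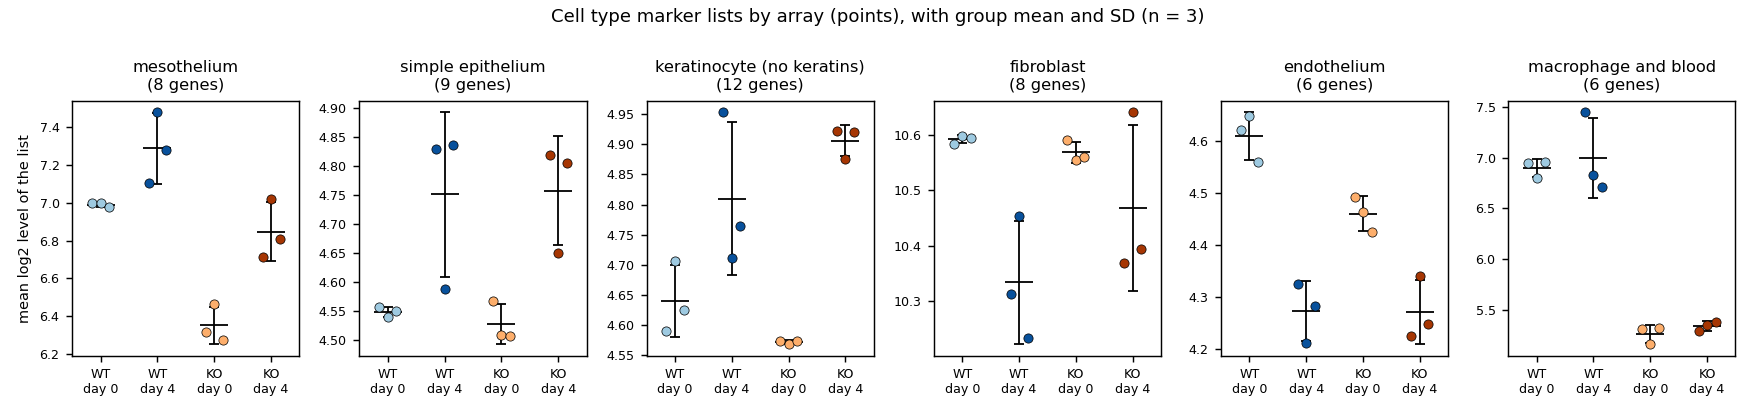
Mean log2 level (vertical axis, with its own range in each panel) of 6 marker lists in every array, by group. Points are single arrays, horizontal bars are group means and error bars are SDs (n = 3). The mesothelial list is lower in KO than in WT arrays of the same day, the macrophage and blood list is lower in KO arrays on both days, and the keratinocyte and simple-epithelium lists are higher on day 4.

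Genes that anchor or control keratins were read from lists chosen for this purpose. Of 23 anchor genes (desmosomes, which join keratin filaments between cells, hemidesmosomes, which join them to the matrix, and plakins, the linkers), 5 rose and 2 fell by day 4 in WT cells, and 7 rose and 2 fell in KO cells, with medians of 0.04 and 0.10. That is 30.4% and 39.1% of the list, against 22.9% and 30.8% of all genes. Pkp1, a desmosomal plakophilin, rose by 2.51 in WT and 2.57 in KO cells, Itgb4, a hemidesmosome integrin, by 2.21 and 2.52, Dsp, the desmosomal plakin, by 1.02 and 1.18, and Perp by 1.12 and 2.82. Pkp2, another plakophilin, fell in WT cells (-1.79 ± 0.17, adjusted p = 1.06e-05), with -0.27 ± 0.17 in KO cells (adjusted p = 0.264). Plec (plectin) had changes of -0.63 and -0.53 and fell in both. Of 19 regulators, 4 rose and 3 fell in WT cells, and 4 rose and 3 fell in KO cells, 36.8% of the list in each, against the same 22.9% and 30.8%. The 4 that rose in both were Klf4, which is also a transduced factor (2.94 and 3.28), Elf3 (1.21 and 0.99), Grhl3 (1.06 and 0.93) and Trp63, the master factor of stratified epithelium (0.43 and 0.44). Msx2 (-0.78 and -1.25) and Hoxc13 (-0.49 and -0.28) fell in both, Klf5 fell in WT cells (-0.76) and Esrp2 in KO cells (-0.32). Of 15 other intermediate filament genes, 1 rose and 3 fell in WT cells and 3 rose and 4 fell in KO cells, 26.7% and 46.7% of the list. Vimentin (Vim) changed by -0.01 ± 0.07 in WT and 0.02 ± 0.07 in KO cells, while Des, the muscle filament desmin, fell, with changes of -1.74 and -1.45. Vim levels were 12.73 to 12.85 over the 12 arrays, near 13.35, the highest value of any probe set. Whether the array resolves changes at such levels was not tested. The 51 keratin-associated protein genes had 1 higher and 1 lower in WT cells and 2 higher and 3 lower in KO cells, 3.92% and 9.80% of the list, under the shares of all genes.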

How the data were processed

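The values are log2 probe-set levels as the authors deposited them, 1 column per array, from total RNA labelled with biotin and hybridised to Affymetrix whole-transcript arrays. Affymetrix Expression Console is the tool in the submitters' processing notes. How the background was corrected, how arrays were normalized and how probes were summarised is, like its version, not given in the sources used here. Of 41345 probe sets, 23521 had 1 gene symbol, 1814 several and 16010 none. Each of 22180 genes with a single-symbol probe set was read from the one with the highest 12-array mean. No low level was filtered out.

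limma 3.58.1 in R 4.3.3 fitted 4 group means to all 12 arrays (8 residual and 4.56 prior degrees of freedom), with two-sided moderated tests in 5 comparisons. The threshold was an adjusted p of 0.05 (Benjamini-Hochberg, all 22180 genes together). For probe sets with several symbols and for the other Krt18 probe set, p was adjusted over all probe sets. The pipeline was tested on simulated data. No batch is named in the labels, and a batch that followed the groups cannot be told apart from them.

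Keratins past the threshold in any comparison were named, up to 12 by smallest p with every array, and the pairs Krt8 and Krt18, Krt5 and Krt14, and Krt1 and Krt10 in any case. Listed genes of other kinds were eligible past the threshold, up to 4 per list and comparison, or where a keratin result touched them. Further members were named where they went the other way or did not pass. The members and lists were chosen with earlier results of these data known. Type and role follow the gene number and general knowledge. Promoter windows came from a RefSeq table of GRCm38.p6.

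Alternatives tried were omission of each array, a 2-fold minimum, a block for the replicate number, fits with only the groups compared, array weights, a robust trended prior, testing all probe sets or averaging those of a gene, median centring, quantile normalization, and leaving out genes below the 25th percentile of level. The joint omission of WT day 4 array 1 and KO day 4 array 2 was chosen after seeing the data.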

Additional observations from a re-analysis of the deposited data

Results flagged for a closer look

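The day 4 change differed between the genotypes for 2 keratins and 4 genes of the anchor list, by limma's test of the difference itself (KO change minus WT change on the log2 scale, adjusted over all tested genes). The 2 keratins are 3.77% of 53, near the 3.95% of all genes that passed, and the 4 are 17.4% of the 23 anchor genes. The difference was -1.04 ± 0.20 for Krt90 (SE, adjusted p = 0.0141), and for Krt16 it was -0.75 ± 0.17 (adjusted p = 0.0339). The Krt90 call was kept in the omission of each array, while that of Krt16 was lost without any of 8 arrays (0.0567 to 0.0909) and with all probe sets tested (0.0774).

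The anchor genes differed in the other direction. Perp, a desmosome-associated membrane protein, gave 1.70 ± 0.21 (adjusted p = 0.00132), and Pkp2, a plakophilin that fell in WT cells, 1.52 ± 0.24 (adjusted p = 0.00568). Itga6, the integrin partner of Itgb4, gave 1.34 ± 0.13 (adjusted p = 0.000354), and Jup, plakoglobin, 0.62 ± 0.10 (adjusted p = 0.00806). On day 0, Perp (-0.99), Itga6 (-0.85) and Jup (-0.66) were already lower in KO than in WT cells, and Pkp2 did not pass (-0.03, adjusted p = 0.964). On day 4, Pkp2 (1.49), Perp (0.71) and Itga6 (0.49) were higher in KO cells, and Jup did not pass (-0.04, adjusted p = 0.741).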

How the results depend on the processing

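Of the 33 keratin calls, 19 were kept without any 1 array and 24 under those settings, other than an omitted array or a 2-fold minimum, in which they were tested. The filter on low levels left 8 calls of Krt16, Krt6a and Krt6b untested, 5 of them among the 24. Of the values computed, 0 changed sign. With a 2-fold minimum, 4 keratins passed in WT day 4 against day 0, 1 in KO day 4 against day 0, 0 between genotypes on day 0, 2 on day 4 and 1 in the difference of changes (limma). At an unadjusted p under 0.05 with 2-fold, the keratin counts were the same. Of all 22180 genes, 793, 841, 310, 349 and 261 were past that unadjusted limit with 2-fold, in the same order. A fit to the day 4 groups alone gave 5 between genotypes. The difference of changes gave 1 with genes under the 25th percentile left out, 1 with all probe sets, and 7 with WT day 4 array 1 and KO day 4 array 2 omitted together, which was chosen after seeing the data. Omission of 1 array gave 8 to 11 keratins in WT day 4 against day 0, 6 to 11 in KO day 4 against day 0, 2 to 5 between genotypes on day 0, 4 to 9 on day 4 and 1 to 3 in the difference. With the replicate block the counts were 11, 8, 4, 9 and 2 in the same order. Same-numbered arrays of different groups had deviations correlated between -0.06 and 0.18, and differently numbered ones between -0.20 and 0.12. The ranges overlapped, so the numbers were not taken to pair the arrays. The highest same-numbered values were those of WT with KO day 4 arrays 2 (0.18) and 3 (0.12), and a pairing of the day 4 arrays alone was not tested. Krt6a in KO cells was lost under the block (adjusted p = 0.0547), while Krt13 in WT cells (0.0388) and Krt75 between genotypes on day 4 (0.0369) passed. Why these counts moved was not tested. With 3 arrays a group and 14 keratins of low level, small changes are not resolved.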
